A study of Mus musculus with 4 samples.

Results

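The 38 Hox genes described here are all the genes on the array whose name in the files is Hoxa, Hoxb, Hoxc or Hoxd followed by a paralog number, out of 27968 genes. They were read by 50 of 41174 probes. The cells were induced hepatocyte-like cells, called iHep, made from cells that the labels call MDFs of C57BL/6 mice, and they were grown in 2D or in 3D culture. Of the 2 independent experiments, iHep-1 and iHep-2, each gave 1 array per culture, so each culture has 2 arrays and there are 4 in all. All 4 samples share the strain and the derivation, no sample of the starting cells was analysed here, and no label names the agent that induced the cells. Both 2D titles, and neither 3D title, hold an unexplained plus sign, so culture and what the sign stands for cannot be told apart.

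Hox genes encode homeodomain transcription factors and lie in clusters named Hoxa to Hoxd, where genes of like position and sequence form paralog groups. In the embryo, genes of low paralog number are used from the hindbrain backwards and genes of high number in the trunk, the hind body, the limb ends and the tail. Cultured fibroblasts and other mesenchymal cells of adult animals are known to keep a Hox pattern that reflects the part of the body they came from. The Hox proteins act together with TALE cofactors of the Pbx, Meis and Pknox families, and Polycomb and Trithorax proteins hold Hox genes off or on.

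Albumin RNA and other hepatocyte markers were bright on these arrays. Of 11 hepatocyte markers on the array, 10 were well above background on all 4 arrays, against 52.2% of all genes. The same held for 4 of 12 fibroblast, 4 of 7 blood and 4 of 6 keratinocyte markers. It held for 1 of 6 skeletal muscle, 1 of 4 mesothelial and 0 of 7 endothelial markers. "Well above background" is the flag of that name that the scanner software sets for each spot, and a gene counts as such where at least 1 of its probes does. The share of all probes with the flag was 56.0% to 59.3% per array, and the lowest processed signal with it was 8.25 to 8.92 intensity units. Signals below are given as a percent of each array's 75th percentile of processed signal, which was 399 to 616 units. Since probes differ in how they bind, a probe's signal was set against itself on other arrays and not against another gene's.

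The Hox probes are 60 bases long, and the files place them on mouse genome build mm9. The Hoxa probes lie at chr6:52105768-52209074, all on the minus strand. The Hoxb probes lie at chr11:96057368-96228510, 14 of 15 on the plus strand. The Hoxc probes lie at chr15:102758794-102866583 and the Hoxd probes at chr2:74508005-74603059, all on the plus strand. No mm9 gene annotation was used, so exons and untranslated parts were not assigned. The sequences below show what the probes of 3 results read, in lower case throughout. Of the 50 probes, 46 share a run of fewer than 12 bases with any probe of another Hox gene. The probes of Hoxa9, Hoxc12 and Hoxd10 and the second probe of Hoxb3 share longer runs, and whether RNA of another Hox gene adds to their signal was not tested. Hoxb13 and Hoxc10 are the genes of the highest paralog numbers that were read on more than 1 array, and the Hoxa3 probe is the bright one of a pair that disagrees.
Hoxb13, chr11:96057368-96057427, plus strand: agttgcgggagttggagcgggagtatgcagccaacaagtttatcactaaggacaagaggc
Hoxc10, second probe, chr15:102798021-102801269, plus strand, in separate blocks: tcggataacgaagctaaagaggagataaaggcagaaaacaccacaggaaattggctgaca
Hoxa3, brighter probe, chr6:52120410-52120469, minus strand: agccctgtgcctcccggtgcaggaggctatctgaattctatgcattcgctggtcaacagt

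The iHep cells carried RNA from Hox genes of all 4 clusters, and every Hox gene flagged on more than 2 arrays belonged to paralog groups 1 to 9. On the arrays of iHep-1 2D, iHep-1 3D, iHep-2 2D and iHep-2 3D, 22, 24, 22 and 19 of the 38 genes were well above background. The shares among all genes on these arrays were 57.0%, 58.7%, 58.5% and 55.9%. On all 4 arrays 19 Hox genes were well above background, against 52.2% of all genes, and 12 were so on no array, against 36.3%. The count of Hox genes was thus near the background, and the pattern lay in which genes they were. Of the 27 genes of groups 1 to 9, 19 were well above background on all 4 arrays. Of the 11 genes of groups 10 to 13, 0 were, 2 were on 2 arrays, 2 on 1 array and 7 on none.

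**Figure D1:**
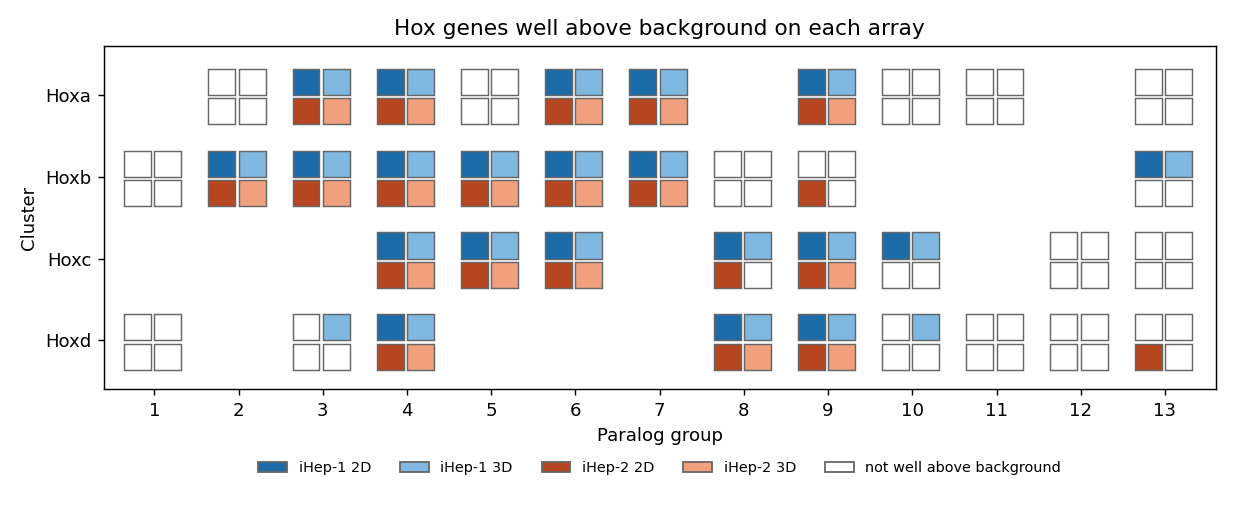
Detection of 37 Hox genes, by cluster (rows) and paralog group (columns), with 1 square per array, filled where the gene was well above background and white where it was not. The filled blocks of all 4 colours lie in groups 1 to 9, and groups 11 and 12 are white throughout.

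Within groups 1 to 9 the middle groups were the most complete. All 4 members of group 4, all 3 of group 6 and both of group 7 were well above background on every array. Groups 4 to 9 together had 15 of 19 members on all 4 arrays, and groups 1 to 3 had 4 of 8. The genes on all 4 arrays included Hoxa3, Hoxa4, Hoxa6, Hoxa7 and Hoxa9, Hoxb2 to Hoxb7, Hoxc4, Hoxc5, Hoxc6 and Hoxc9, and Hoxd4, Hoxd8 and Hoxd9. Hoxc8 was on 3 arrays and not on that of iHep-2 3D. The genes dim on every array were Hoxa2, Hoxa5, Hoxa10, Hoxa11 and Hoxa13, Hoxb1 and Hoxb8, Hoxc12 and Hoxc13, and Hoxd1, Hoxd11 and Hoxd12. In the Hoxa cluster the dim Hoxa5 lies between Hoxa4 and Hoxa6, which were flagged on every array. A dim probe gives no bound on RNA that it does not bind.

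Hoxa had 6 of 11 genes on all 4 arrays, Hoxb 6 of 10 and Hoxc 4 of 8, near the 52.2% of all genes. Hoxd, with 3 of 9, was below that share, and the difference between clusters was not tested. In Hoxa the same 6 genes were flagged on each array and the 3 members of groups 10 to 13 on none. In Hoxd, 3 further genes were each flagged on 1 array, namely Hoxd3 and Hoxd10 in iHep-1 3D and Hoxd13 in iHep-2 2D. The genes that separate the arrays were therefore few. Besides Hoxd3 and Hoxd10, Hoxc10 and Hoxb13 were flagged in iHep-1 alone, so 4 genes were flagged only in iHep-1, against 3.40% of all genes. Hoxb9 and Hoxd13 were flagged only in iHep-2, against 3.32% of all genes, each on the 2D array. Hoxc10 and Hoxb13 were flagged on both iHep-1 arrays and neither iHep-2 array, a pattern of 1.09% of all genes.

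The anterior genes, of groups 1 to 3, act in the hindbrain, the neck and the structures around the pharynx. Hoxb2, which helps to pattern hindbrain segments, read 360% and 587% in iHep-1 2D and 3D, and 93.3% and 99.5% in iHep-2 2D and 3D. Both iHep-1 arrays were above both iHep-2 arrays. Hoxa3, needed for the thymus and parathyroid glands, read 42.0% and 40.1% in iHep-1 and 43.5% and 57.5% in iHep-2, again 2D before 3D. Hoxb3 read 45.9% and 52.6%, then 56.0% and 40.3%, and its experiments overlapped. In Hoxa3 both iHep-2 arrays were above both iHep-1 arrays.

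The genes of groups 4 to 6 are used from the lower neck to the chest. Hoxc6, which is expressed at chest and forelimb level, read 167% and 274% in iHep-1 and 46.9% and 69.9% in iHep-2. The experiments did not overlap, and in each the 3D array was the higher. Hoxb5 read 24.8% and 41.7% in iHep-1 and 10.6% and 17.8% in iHep-2, with the same order. Hoxc5 had the opposite order of experiments, with 6.89% and 7.52% in iHep-1 and 18.3% and 13.3% in iHep-2. Hoxb4, known also from blood stem cells, read 18.6% and 16.4%, then 9.56% and 10.96%. Hoxa4 read 6.65% and 6.84% in iHep-1 against 2.41% and 5.18% in iHep-2, the iHep-2 2D array being the lowest. The 4 remaining genes of these groups whose signal was flagged on every array, Hoxa6, Hoxb6, Hoxc4 and Hoxd4, had means that differed by at most 0.41 log2 units between experiments.

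The genes of groups 7 to 9 belong to the chest and the upper belly. Hoxc9, which helps to pattern the thoracic vertebrae, read 526% and 932% in iHep-1 2D and 3D and 149% and 185% in iHep-2 2D and 3D. Both iHep-1 arrays were the higher, with no overlap. Hoxc8 had the same order of experiments, with 4.15% and 7.45% in iHep-1 and 1.66% and 1.79% in iHep-2, the last of which was not well above background. Hoxa9, a gene also known from blood progenitors, read 10.49% and 13.8% in iHep-1 and 4.71% and 6.20% in iHep-2. Hoxb7 stood apart, with 19.3% and 57.1% in iHep-1 and 81.2% and 85.5% in iHep-2. Its iHep-1 2D array was the lowest, and both iHep-2 arrays were above both iHep-1 arrays. Hoxd8 was ordered by culture, at 63.9% and 52.9% in 2D of iHep-1 and iHep-2 against 40.8% and 33.0% in 3D. Hoxd9 had the opposite order, at 22.7% and 23.3% in 2D against 31.9% and 28.5% in 3D.

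The posterior genes, of groups 10 to 13, are used in the lower back, the tail and the limb ends. Hoxc10, a gene of the lumbar region and hind limb, read 19.8% and 16.5% in iHep-1 2D and 3D, and 1.47% and 1.81% in iHep-2, where it was not well above background. Its second probe, printed above, had the same pattern, at 3.46% and 3.04% against 1.31% and 1.53%. Hoxb13, known from the tail, hind gut and prostate, read 6.67% and 6.59% in iHep-1 and 1.15% and 0.43% in iHep-2, also not well above background there. The other 2 posterior genes that were flagged each rested on a single array. Hoxd10 read 2.79% in iHep-1 3D and 0.53% to 1.31% elsewhere, and Hoxd13 read 1.96% in iHep-2 2D and 0.42% to 1.37% elsewhere. Of the genes below group 10, Hoxb9 and Hoxd3 were alike in this. Hoxb9 read 5.17% in iHep-2 2D and 0.44% to 0.85% elsewhere, and Hoxd3 read 2.99% in iHep-1 3D and 0.96% to 1.15% elsewhere.

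**Figure D2:**
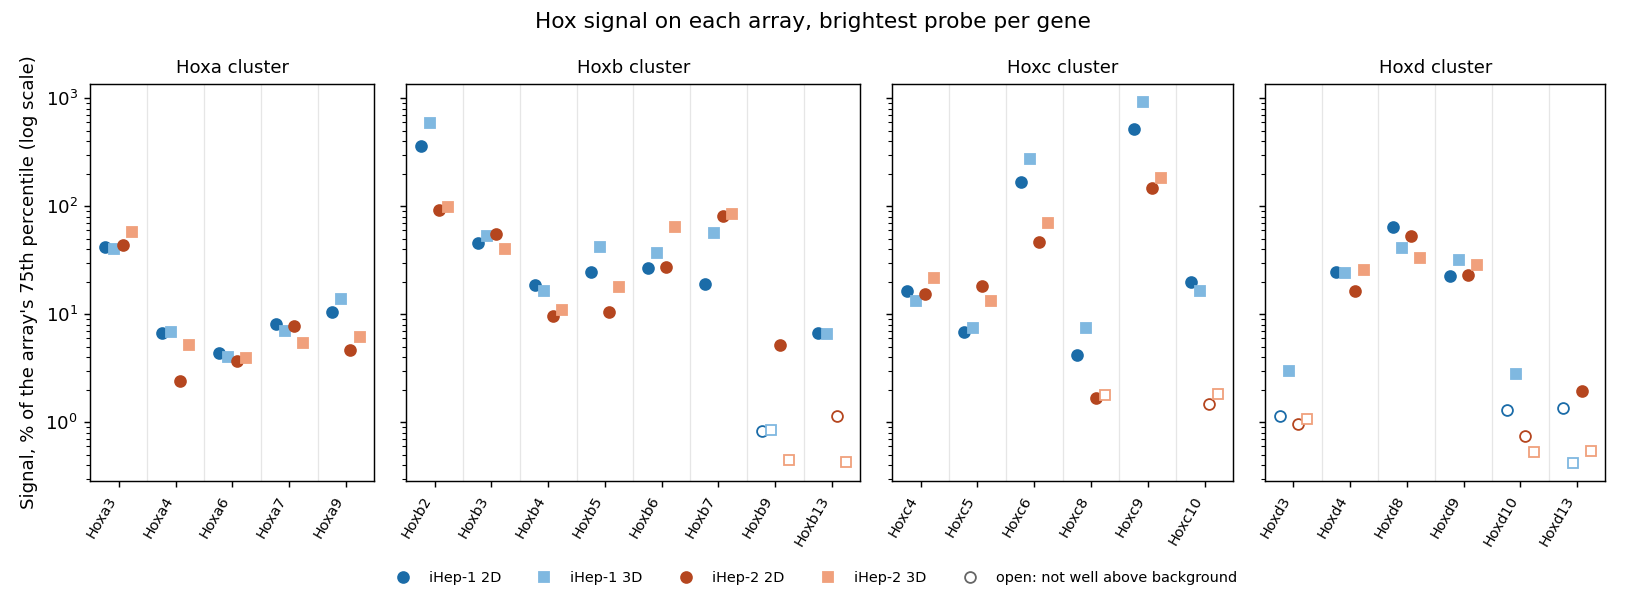
Signal of 25 Hox genes flagged on at least 1 array, as percent of the array's 75th percentile on a log axis, with 1 point per array for the brightest probe of each gene. Filled points were well above background and open points were not. The blue points of iHep-1 lie above the red points of iHep-2 for Hoxb2, Hoxc6, Hoxc9, Hoxc10 and Hoxb13, and the reverse holds for Hoxb7 and Hoxc5.

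Several Hox genes differed between the experiments by more than 2-fold in both cultures. A gene entered the tests where 2 or more arrays had a probe of it well above background, which kept 22 of the 38 Hox genes among 16447 genes. Of these 22, 8 were below iHep-1 by at least 2-fold in iHep-2 in both 2D and 3D, against 5.73% of all genes tested, and 0 were at least 2-fold higher in both, against 5.12%. The 8 were Hoxa9, Hoxb2, Hoxb5, Hoxb13, Hoxc6, Hoxc8, Hoxc9 and Hoxc10. Hoxc10 and Hoxb13 passed the filter only through iHep-1 and so had to differ. Among the 19 Hox genes well above background on all 4 arrays, 5 were at least 2-fold lower in both cultures, namely Hoxa9, Hoxb2, Hoxb5, Hoxc6 and Hoxc9, against 3.69% of all genes that passed the same filter. Each experiment was done once, and its 2 arrays are of different cultures, so the comparison is of these experiments and not of a condition.

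Under limma with Benjamini-Hochberg adjustment over all genes, 0 of the 22 Hox genes and 54 of the 16447 genes, 0.328%, passed an adjusted p of 0.05. Without adjustment, 10 Hox genes had a p under 0.05, 9 lower and 1 higher in iHep-2, against 12.6% of all genes. Of the 19 Hox genes flagged on all 4 arrays, 7 did, against 1457 of 14567 genes so flagged. Hoxc10 had the smallest adjusted p of the Hox genes, 0.051 by limma, and 0.045 with the culture as a block, where 1.84% of all genes passed. Since Hoxc10 had to differ to be tested as it was, these p-values describe it and support nothing. As it was dim in iHep-2, its fold is a bound, which sets the iHep-1 mean against the higher of the probe's own signal and the lowest signal well above background on each iHep-2 array. Hoxc10 was at least 10.2-fold lower in iHep-2 by its brighter probe and at least 1.92-fold lower by the other. Hoxb13 was at least 3.93-fold lower.

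The genes with the largest measured differences on both sides were Hoxb2 and Hoxc9. The log2 difference of Hoxb2, iHep-2 minus iHep-1, was -1.95 in 2D and -2.56 in 3D, with a mean of -2.25 (SE 0.34) and a limma adjusted p of 0.11. Hoxc9 differed by -1.81 and -2.33, with a mean of -2.07 (SE 0.39). Hoxc6 differed by -1.83 and -1.97, Hoxa9 by -1.15 and -1.16, and Hoxb5 by -1.23 in each culture. In these 3 genes both cultures gave nearly the same difference. Hoxb7 differed the other way, by 2.08 in 2D and 0.58 in 3D, and Hoxc5 by 1.41 and 0.83. Their limma adjusted p-values were 0.51 and 0.25.

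By cluster, the 5 genes that were flagged on all 4 arrays and at least 2-fold lower in iHep-2 in both cultures lay in Hoxa, Hoxb and Hoxc. They were 1 of 6 Hoxa genes, 2 of 6 Hoxb genes and 2 of 4 Hoxc genes with that flag, and 0 of 3 Hoxd genes, which differed by -0.29 to -0.06. The difference between clusters was not tested. Neighbours within a cluster went different ways. In the Hoxc cluster Hoxc5 was higher in iHep-2 on both arrays, Hoxc4 overlapped, and Hoxc6, Hoxc8, Hoxc9 and Hoxc10 were lower. Over the 19 Hox genes flagged on all 4 arrays the median log2 difference was -0.25, against 0.002 over all genes so flagged. It was -0.53 over the 22 tested genes, of which Hoxc10 and Hoxb13 had to differ, against -0.005 over all genes tested, and -0.056 over all 38 Hox genes with no filter. In 11 of the 22 tested Hox genes the iHep-2 arrays were both below the iHep-1 arrays, against 22.6% of all genes tested. Among the 19 flagged on all 4 arrays this held for 8, against 21.5% of all genes so flagged. In 3 of the 22, Hoxa3, Hoxb7 and Hoxc5, the iHep-2 arrays were both above, against 19.0% of all genes tested.

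**Figure D3:**
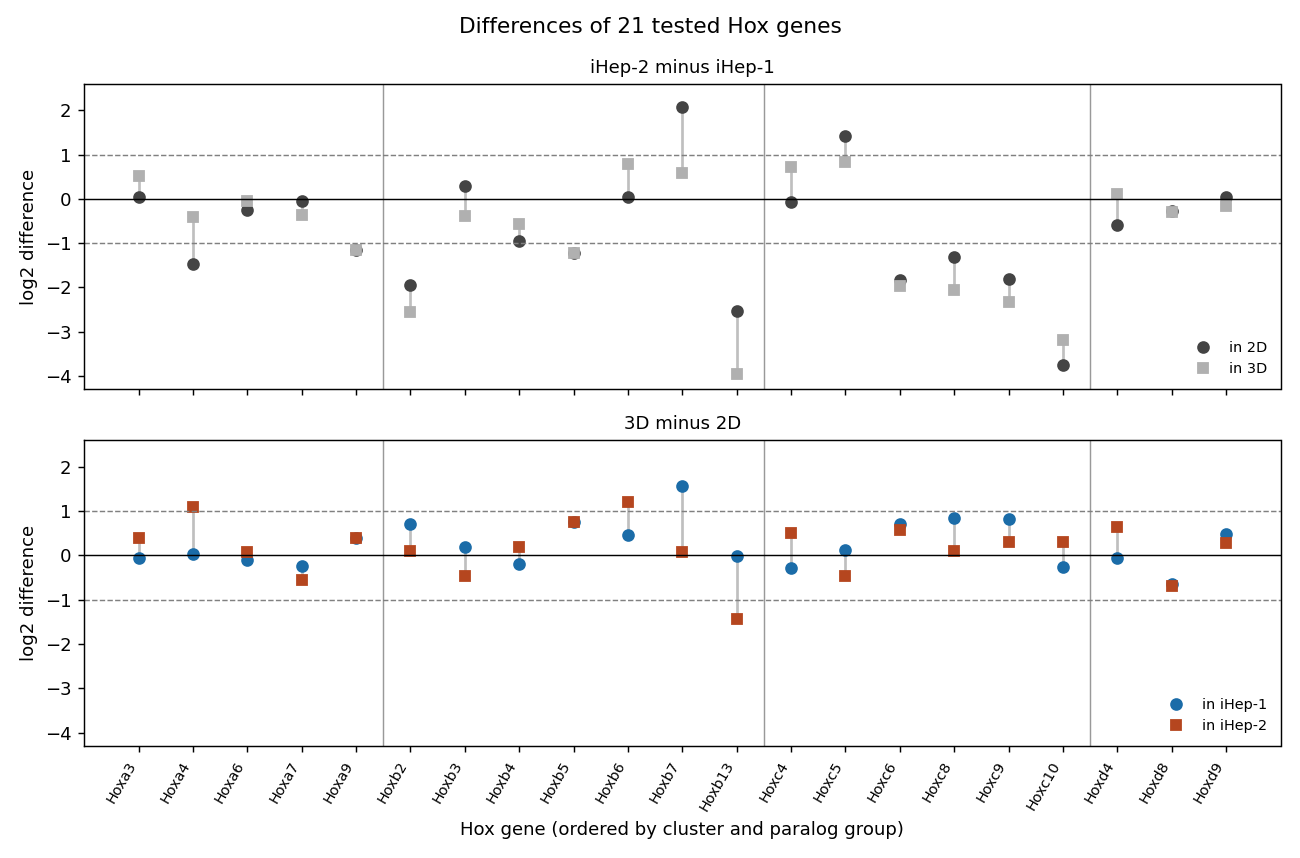
Log2 differences of 21 tested Hox genes, iHep-2 minus iHep-1 in each culture (top) and 3D minus 2D in each experiment (bottom), with a line joining the 2 values of a gene and dashed lines at a 2-fold difference. In the top panel 8 genes have both values below the lower dashed line, and in the bottom panel no gene has both values beyond a dashed line.

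Single markers of some other cell types differed between the experiments as well, though 0 of the fibroblast, mesothelial and muscle markers passed the limma test. Their signals are given here in unscaled intensity units. On the arrays of iHep-1 2D, iHep-1 3D, iHep-2 2D and iHep-2 3D, 5, 7, 5 and 4 of 12 fibroblast markers were well above background. The 5 that were dim on all arrays were Dcn, Lum, Thy1, Fbn1 and Postn. The summed signal of the 12 was 9371 and 24789 in iHep-1 2D and 3D and 39006 and 10091 in iHep-2, so the experiments overlapped. Most of each sum came from Vim, which read 6398 and 15703 units in iHep-1 2D and 3D and 35692 and 5958 in iHep-2. Of the 5 fibroblast markers tested, 3 were lower in iHep-2 in both cultures, against 33.6% of all genes, and 1 higher, against 30%. Pdgfrb, a receptor of mesenchymal cells, read 282 and 152 intensity units in iHep-1 and 27.5 and 1.77 in iHep-2, while the collagen gene Col1a2 read 44.4 and 118, then 48.3 and 36.3. The 4 mesothelial markers summed to 1256 and 1236 in iHep-1 and to 42326 and 1616 in iHep-2, nearly all of it from Msln, which gave 42309 units in iHep-2 2D. The 6 muscle markers summed to 20.4 and 23.9 in iHep-1 and to 168 and 111 in iHep-2, with 149 units from Acta1 in iHep-2 2D and 78.1 from Myh3 in iHep-2 3D, and the other 4 were dim on all arrays. In bulk RNA, fewer cells of a type and less RNA per cell cannot be told apart, and the part of these cell types in the Hox differences was not tested.

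Between 2D and 3D culture, the comparison the series was built for, 0 of the 22 Hox genes passed the limma test, as did 0% of the 16447 genes, and the Hox genes had adjusted p-values of 0.683 to 0.998. At an unadjusted p under 0.05, 0 Hox genes passed, against 7.03% of all genes. With the experiment as a block, 0 Hox genes passed, as did 0% of all genes. The smallest limma adjusted p was then 0.37 among the Hox genes and 0.125 among all genes. The experiments pair the arrays, and 0 Hox genes were higher in 3D by at least 2-fold in both experiments, against 4.26% of all genes, and 0 were lower by as much, against 2.13%. The design resolves little. In simulated data with the real spread of this comparison, limma called 1 of 100 genes given a change of 2 log2 units and 86 of 100 given one of 6.

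The small differences that were seen had no common direction. In 10 Hox genes the 3D array was the higher in both experiments, against 33.2% of all genes, in 4 it was the lower, against 33.0%, and in 8 the experiments went opposite ways, against 33.8%. In 5 genes the cultures did not overlap, against 41.4% of all genes. Among them, Hoxb6 and Hoxd9 were higher in 3D, and Hoxa7 and Hoxd8 lower. Hoxb6 differed by 0.45 in iHep-1 and 1.21 in iHep-2, and Hoxd8 by -0.64 and -0.68. Hoxb7 was higher in 3D by 1.57 in iHep-1 and by 0.07 in iHep-2. The median over the 22 genes was 0.23 log2 units, against 0.019 over all genes, and it lay between -0.23 and 0.52 when single arrays were left out. These directions hold for scaling to each array's 75th percentile. Scaled to 6 spike-in probes, the median of all genes moved to -1.08 and that of the Hox genes to -0.86, and 15 of the 22 genes changed sign.

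The size of the differences can be set side by side within each gene. Among the 19 Hox genes flagged on all 4 arrays, the mean difference between experiments was larger than that between cultures in 12, against 48.3% of all genes so flagged. The median size of the difference was 0.77 log2 units between experiments and 0.40 between cultures for these Hox genes, and 0.28 and 0.31 for all genes so flagged.

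Where a gene had more than 1 probe, the probes could be compared as separate readings. Of 12 genes with 2 probes, 4 had both well above background on all 4 arrays, 2 had both dim on all arrays, 1, Hoxc10, had both flagged on the iHep-1 arrays, and 5 had probes that differed in the number of arrays. The probes of Hoxd9 gave nearly the same pattern, with mean differences between experiments of -0.06 and -0.12. Those of Hoxb6 did not. Hoxb6 differed by 0.41 between experiments at its brighter probe and by -1.09 at the other, so no direction between experiments is given for it. Between cultures its other probe was higher in 3D by 0.54 in iHep-1 and differed by -0.21 in iHep-2. Hoxb3 differed by -0.05 and, at its other probe, by -0.76. Hoxa3 was bright at the printed probe, while its other probe read 0.33% to 0.55% and was dim on all arrays.

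**Figure D4:**
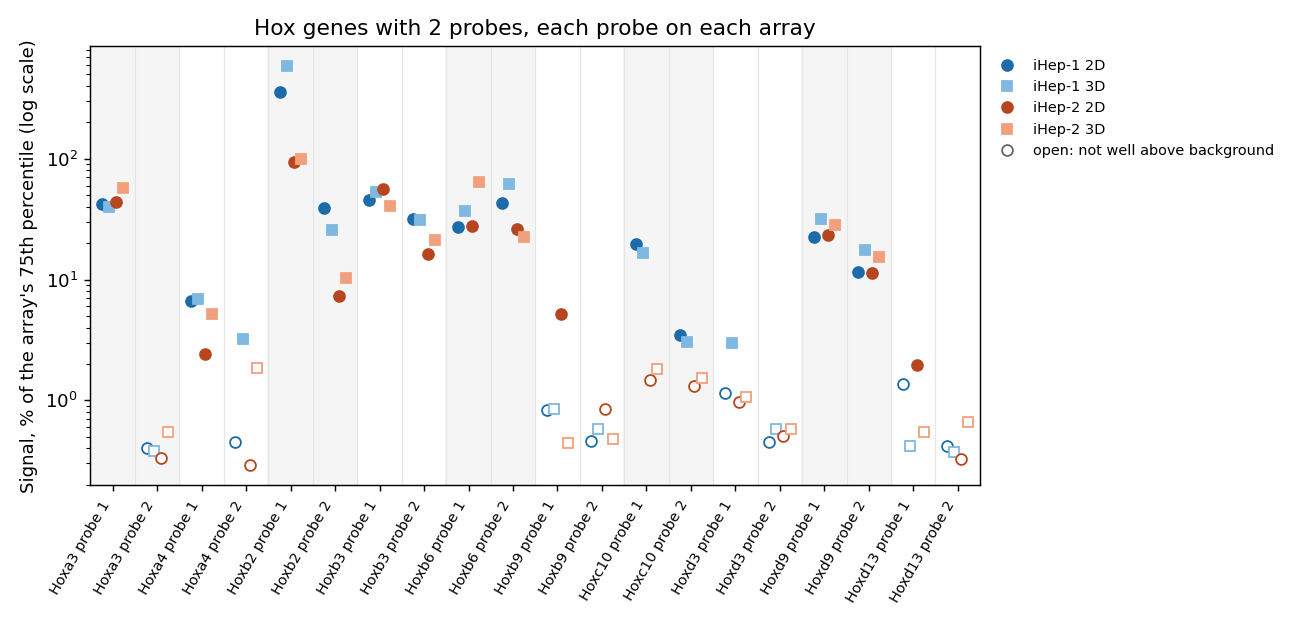
Signal of each probe of the 10 flagged Hox genes that have 2 probes, as percent of the array's 75th percentile on a log axis, with 1 point per array and open points not well above background. Shading alternates between genes. Both Hoxc10 probes place iHep-1 above iHep-2, the Hoxb6 probes disagree for iHep-2 3D, and the second Hoxa3 probe lies below 1% throughout.

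Hoxb2 had a probe on each strand. The probe on the plus strand, that of the other Hoxb genes, lies at chr11:96215122-96215181. The probe on the minus strand, at chr11:96211860-96211919, carries the name Hoxb2 in the files but reads the opposite strand. It read 39.5% and 25.5% in iHep-1 2D and 3D and 7.25% and 10.4% in iHep-2. Its difference between experiments, -2.44 in 2D and -1.30 in 3D, had the same direction as that of the plus-strand probe. A further probe on the opposite strand inside a cluster, of the antisense gene Hoxd3os1 at chr2:74548166-74548225, was well above background on all 4 arrays with processed signals of 37.1 to 60.6 units. Of the 9 probes of other genes inside the cluster spans, it was the 1 well above background.

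All 9 TALE cofactors of Hox proteins on the array were well above background on all 4 arrays, against 52.2% of all genes, and 0 passed the limma test between cultures or between experiments. Pbx4 was higher in iHep-2 by 2.26 in 2D and 2.75 in 3D on the log2 scale, and Meis1 differed by -0.81 and -0.999. All 29 Polycomb and Trithorax genes were well above background on all 4 arrays. Of these, 21 were lower in 3D in both experiments, against 33.0% of all genes, and 4 higher, against 33.2%, and 0 passed the limma test, with a median of -0.28 under scaling to the 75th percentile. Phf19, a Polycomb accessory protein, differed by -1.33 in iHep-1 and -2.91 in iHep-2. Of 20 genes upstream of Hox expression on the array, 11 were flagged on all 4, near the share of all genes, and 6 on none. Of the 13 tested, 6 were higher in 3D in both experiments, against 33.2% of all genes, and 5 lower, against 33.0%. Of these 13, 0 passed the limma test. Aldh1a1 and Aldh1a3, enzymes that make retinoic acid, had 3D minus 2D differences of 1.95 and 2.91 and of 1.38 and 1.83. Crabp1, a retinoic acid binding protein, had -2.58 and -1.36. Gdf11, chosen after its values were seen as the other gene at least 2-fold lower in 3D in both experiments, read 11.99 and 12.7 units in 2D of iHep-1 and iHep-2 and was not well above background in 3D. Between experiments they went opposite ways, with Aldh1a1 at 2.42 and 3.38 and Aldh1a3 at -3.03 and -2.58.

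Other genes that mark body position also differed between experiments. Of 38 positional homeobox and T-box genes on the array, 21 were tested, and 7 were at least 2-fold lower in iHep-2 in both cultures, against 5.73% of all genes, and 1 was at least 2-fold higher, against 5.12%, while 0 passed the limma test. Prrx2, a gene of limb and face mesenchyme, read 23.1 and 62.5 intensity units in iHep-1 2D and 3D and 1.97 and 1.78 in iHep-2. Pitx1, which sets hind limb identity, read 24.1 and 53.7, then 1.66 and 7.75. Neither gene was well above background on an iHep-2 array. Barx2 was the gene in the other direction, at 15.9 and 184 in iHep-1 and 52.6 and 818 in iHep-2. Of the 9 ParaHox and Evx genes, Pdx1 was flagged in iHep-1 alone, at 17.7 and 18.2 units against 3.67 and 4.26. Evx2, which lies beside the Hoxd cluster, was well above background on all 4 arrays at 14.7 to 18.6 units, and Evx1, beside the Hoxa cluster, on none.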

How the data were processed

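RNA was amplified, labelled with Cy3 and hybridised to 4 one-colour arrays of Agilent design 014868, which lay on 1 slide with 1 scan time, per the file headers. The deposited scanner files hold linear intensity values and flags from Agilent Feature Extraction, for which the submitters' processing notes name version 9.5.1.1 but the headers 10.7.1.1. Here, log2 of the processed signal was taken, each array's 75th percentile was subtracted, outlier spots were left out and spots of a probe averaged. A gene was represented by its probe of highest mean. The tests were two-sided, by limma (version 3.58.1, R 4.3.3), with 2 residual degrees of freedom, and p-values were adjusted over 16447 genes. The number of arrays limits the precision. Same-numbered arrays share an experiment per the design text, and their deviations from culture means correlated across genes (r = 0.66). The Hox genes, the related gene lists and the marker lists were chosen with earlier results of these data known. All Hox genes are in the counts and tests, some genes' own values are not reported here, and up to 4 genes of each related list are named, those with the largest smaller difference over the pairs of arrays. limma was tested on simulated data.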

Additional observations from a re-analysis of the deposited data

How the results depend on the processing

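Of the alternatives, other detection rules gave 24, 22 and 17 Hox genes on all 4 arrays. The 24 came from the flag for a positive and significant signal, with 72.3% to 76.6% of all genes per array. The 22 came from signals above the 95th percentile of negative controls, with 71.5% to 74.9% of all genes. The 17 came from asking that all probes of a gene be well above background, with 46.2% to 49.7%. In 13 settings, the main one included, the 8 genes at least 2-fold lower in iHep-2 had a mean difference below 0 wherever they were tested. They were chosen by these same values, and each had both iHep-2 arrays below both iHep-1 arrays. Their sign was thus fixed in advance without single arrays, with the block and under other filters, and it supports nothing. Hox genes at least 2-fold lower in iHep-2 in both cultures numbered 3 with normexp, against 2.55% of all genes. The normexp offset of 50 is added to every signal. Such Hox genes numbered 6 with spike-in scaling, against 4.51% of all genes, and 1 Hox gene was at least 2-fold higher, against 4.93%. Where all 4 arrays had to be well above background they numbered 5, against 3.69%. Hoxc10, which was tested only through its signal in iHep-1, was the 1 Hox gene past the threshold after quantile normalization (limma adjusted p 0.042), in the authors' series table (0.038) and with the culture as a block (0.045). It was past it in no other setting, with an adjusted p of up to 0.27, among them 0.26 with normexp and 0.075 with the mean of its probes. The median Hox difference between experiments was -0.24 with normexp, -0.43 with spike-in scaling, -0.68 in the authors' series table, -0.25 with the filter on all 4 arrays and -0.056 with no filter. Without single arrays it was -0.73 to -0.39. Between cultures, the median was -0.86 with spike-in scaling and -0.23 to 0.52 without single arrays, negative without the iHep-1 3D or the iHep-2 2D array. At least 2-fold lower in 3D in both experiments were 4 Hox genes with spike-in scaling, against 20% of all genes. With no filter there was 1, against 1.49%. With the replicate block for experiment, 0 Hox genes and 0% of all genes passed between cultures, as without it. The cause of these shifts was not tested. Uncalled single genes changed sign most often between cultures, 15 with spike-in scaling and up to 11 without 1 array. Over all genes tested, 54 passed between experiments, against 0 without any single array, 3 with the filter on all 4 arrays and 405 with spike-in scaling, and between cultures 0 passed, against 289 with spike-in scaling. A slide block was not run, as there was 1 slide. Probes not well above background carry no fold.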
